A study of Mus musculus with 43 samples.

Results

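The Notch pathway is described here through 9 genes. These are the receptors Notch1 and Notch2, the ligands Jag1, Dll1 and Dll4, and the glycosyltransferase Lfng. Further members are the Notch targets Hes1 and Nrarp and the Hes-family gene Hes6. All 9 were looked up by gene symbol. They were found among the 23951 genes of each bulk RNA table and among the 54307 gene rows of each single-cell matrix. Bulk RNA was measured in primary intestinal organoids of wild-type C57BL/6 mice, in 18 libraries that form 6 groups of 3. Organoids collected at day 7 were either not irradiated or given 4 Gy of ionizing radiation on day 4, and each kind received vehicle or 2 ng/mL of the cytokine TGFB1 from day 6 for 24 h. In the remaining groups, organoids were irradiated and treated in the same way and then cultured without further stated treatment until day 11, so that TGFB1 was a pulse that had ended before collection. Single-cell RNA was measured in 4 libraries of organoids irradiated with 4 Gy on day 4 and collected at day 8, after vehicle (called 0 h) or 1 ng/mL TGFB1 for 6, 15 or 24 h. It was also measured in 3 libraries of crypt cells sorted for a Ki67-RFP reporter from the proximal small intestine of Mki67tm1.1Cle/J mice, 1 library without irradiation and 2 taken 56 h after 12 Gy to the whole body. The sort keeps cells that make Ki67, a protein of cycling cells, and the cells of irradiated crypts passed a wider strainer than those of non-irradiated crypts, a difference that cannot be told apart from irradiation. The labels do not say whether replicate libraries came from separate mice or cultures, so p-values measure the spread between these libraries, which may be technical.

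Notch signalling works between touching cells. A Delta-like or Jagged ligand on one cell binds a Notch receptor on its neighbour, the receptor is cut, and its intracellular part moves to the nucleus, where it binds the DNA-binding protein RBPJ and switches on repressors such as Hes1. In the intestinal crypt, Hes1 keeps stem and absorptive progenitor cells from turning on Atoh1, the factor that starts the secretory lineages (goblet, Paneth, enteroendocrine and tuft cells), and cells that escape this control make Dll1 and Dll4 and so signal to their neighbours. Lfng adds sugars to Notch receptors and thereby changes how they respond to Delta-like and Jagged ligands. Nrarp is a target that feeds back by destabilizing the intracellular part of the receptor, and Hes6 is a Hes-family protein that is known to oppose Hes1.

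The stretches of DNA just before the transcription starts are shown first, because Notch and TGF-beta signalling both end at DNA-binding proteins with short recognition letters. RefSeq's promoter windows (build GRCm38.p6) matched 8 of the 9 members, in 10 windows, and the 250 bases before each start were searched on both strands. Hes1 had no window and was not searched. The motifs were GTGGGAA for RBPJ, CACNAG for Hes proteins (the N-box), and GTCTAGAC and CAGACA for SMAD proteins, the transducers of TGFB1. No match overlapped another. Shown are Lfng, the member with an RBPJ match, Nrarp and Dll1, which fell together with TGFB1, and Notch2 and Jag1, which rose together. Capitals mark every match.

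Lfng: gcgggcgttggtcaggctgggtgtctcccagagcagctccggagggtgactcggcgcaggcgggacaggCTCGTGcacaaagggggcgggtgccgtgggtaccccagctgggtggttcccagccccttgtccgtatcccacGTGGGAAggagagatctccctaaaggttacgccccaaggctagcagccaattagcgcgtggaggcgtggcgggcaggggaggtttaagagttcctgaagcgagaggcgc
Nrarp: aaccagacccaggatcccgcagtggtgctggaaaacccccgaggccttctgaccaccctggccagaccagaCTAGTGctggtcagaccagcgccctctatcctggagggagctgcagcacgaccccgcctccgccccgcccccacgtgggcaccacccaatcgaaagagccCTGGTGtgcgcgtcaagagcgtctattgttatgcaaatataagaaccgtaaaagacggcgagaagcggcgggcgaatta
Dll1: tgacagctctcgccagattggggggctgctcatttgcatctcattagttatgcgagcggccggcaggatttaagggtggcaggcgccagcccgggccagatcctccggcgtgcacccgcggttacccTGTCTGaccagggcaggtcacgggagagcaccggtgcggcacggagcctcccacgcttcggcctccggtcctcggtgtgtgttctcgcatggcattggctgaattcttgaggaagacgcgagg
Notch2: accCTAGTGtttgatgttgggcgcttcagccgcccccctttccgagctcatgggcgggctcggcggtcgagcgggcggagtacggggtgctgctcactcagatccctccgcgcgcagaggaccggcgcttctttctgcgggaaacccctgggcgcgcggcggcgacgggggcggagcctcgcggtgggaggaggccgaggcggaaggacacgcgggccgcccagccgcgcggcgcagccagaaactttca
Jag1: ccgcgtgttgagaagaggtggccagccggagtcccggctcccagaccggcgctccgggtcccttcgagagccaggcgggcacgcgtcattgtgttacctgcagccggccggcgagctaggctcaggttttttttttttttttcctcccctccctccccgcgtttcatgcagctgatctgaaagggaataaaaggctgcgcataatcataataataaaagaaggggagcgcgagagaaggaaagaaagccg

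The Lfng window (chr5:140607091-140607340, plus strand) held GTGGGAA 109 bases before the start, letters present in 5.42% of 32851 mouse promoter windows of this length, and an N-box at 181 bases. The Nrarp window (chr2:25180508-25180757, plus strand) held 2 N-boxes, at 179 and 79 bases, and an N-box was present in 36.7% of all windows. Dll1 had 2 windows. In the one shown (chr17:15375824-15376073, minus strand), the SMAD letters CAGACA lay on the opposite strand, 123 bases before the start, and 17.1% of all windows had them. The other Dll1 window (chr17:15376933-15377182, minus strand) also held them on the opposite strand, 148 bases before its start. The Notch2 window (chr3:98013288-98013537, plus strand) had an N-box 247 bases before the start, and the Jag1 window (chr2:137116521-137116770, minus strand) had none of the letters searched. The palindrome GTCTAGAC occurred in no member window and in 0.167% of all windows. In the windows not shown, the SMAD letters CAGACA also occurred, on either strand, 35 bases before the start of Dll4 and 134 bases before 1 start of Hes6. N-boxes lay 108 bases before the start of Notch1, 75 before that of Dll4 and 237 before the other start of Hes6. These matches describe sequence and show nothing about binding or about the response to TGFB1.

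TGFB1 was compared with vehicle in each of the 3 bulk tables. Values are FPKM, which scale reads by the size of the library and by transcript length, so that levels of different genes can be set side by side. The read depth behind them is unknown. A gene was called when limma's adjusted p was under 0.05, and log2 fold changes are on the scale of log2(FPKM + 1), which understates the change of low genes. At day 7 without irradiation 8 of the 9 members were called, 5 higher and 3 lower, against 68.2% of all genes tested (33.3% higher and 34.9% lower). At day 7 after irradiation 8 were called as well, 4 higher and 4 lower, against 75.5% of all genes (35.8% higher and 39.7% lower). At day 11 the pulse left 5 members called, 2 higher and 3 lower, against 63.9% of all genes (32.3% higher and 31.6% lower). So large a share of all genes was called in each table that these counts do not set the members apart. The median log2 fold change of the 9 members was 0.18, 0.02 and -0.23 in the 3 tables, beside -0.02, -0.03 and 0.01 over all genes tested. In bulk RNA, fewer cells of a type and less RNA per cell cannot be told apart.

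**Figure D1:**
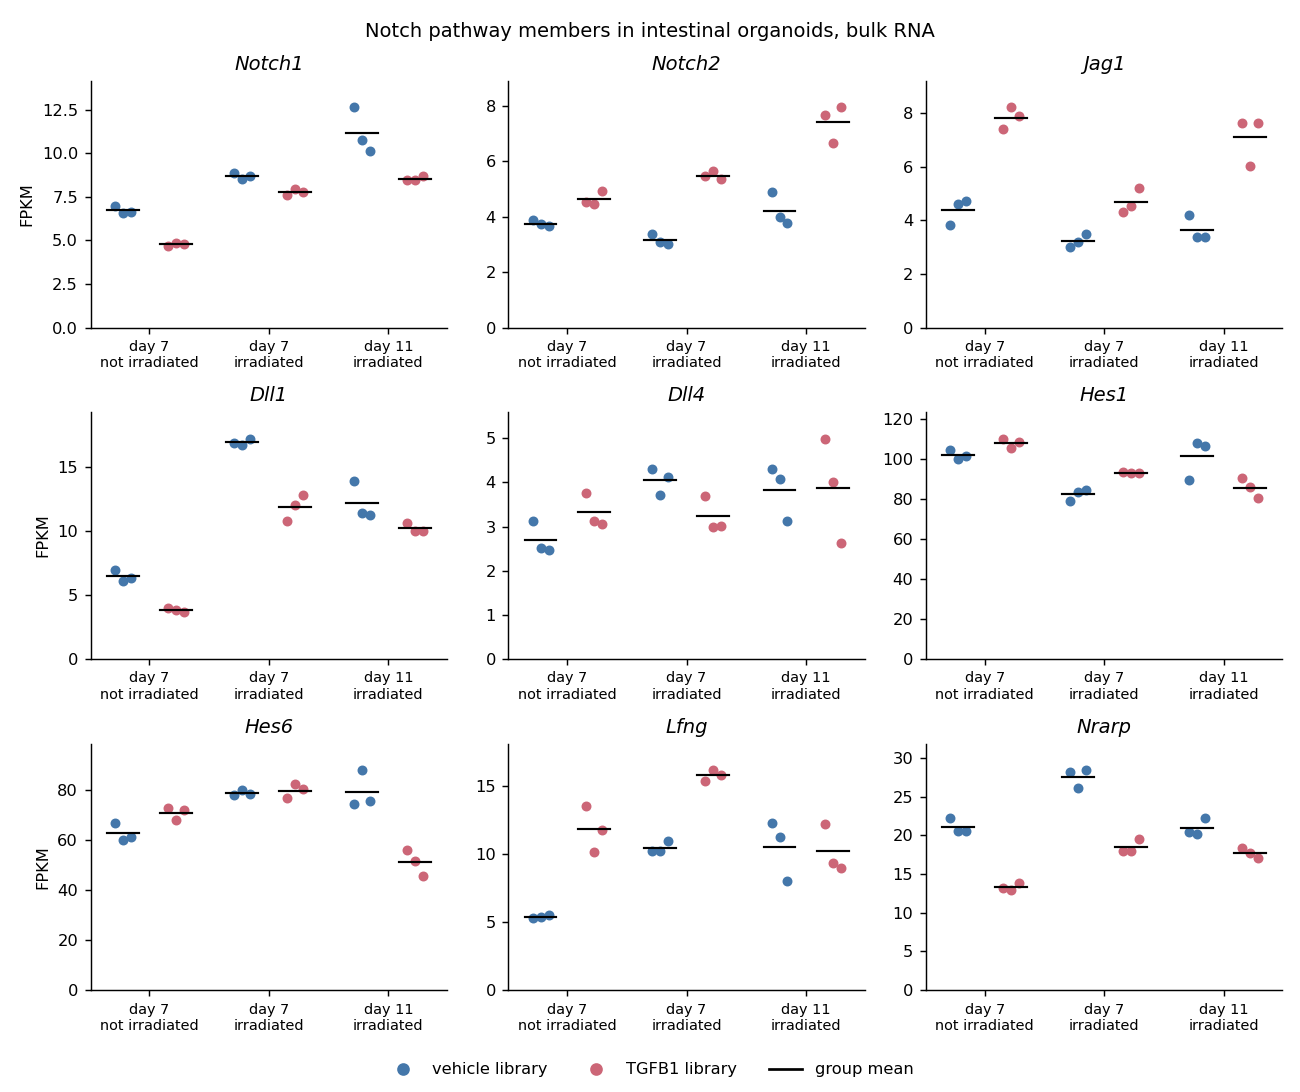
Level of each member (FPKM, linear axis from 0) in the 18 bulk libraries, by group; points are libraries and black lines group means of 3. Notch2 and Jag1 lie higher with TGFB1 in all 3 pairs of groups, Notch1 and Nrarp lower in all 3.

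The 2 receptors moved in opposite directions. Notch1, the main receptor by level in vehicle organoids, stood at 6.95, 6.59 and 6.65 FPKM with vehicle and 4.70, 4.86 and 4.8 FPKM with TGFB1 at day 7 without irradiation, and the groups did not overlap. The fall was 0.42 on the log2 scale (SE 0.053, adjusted p 4.17e-05). After irradiation Notch1 was 8.86, 8.53 and 8.68 FPKM with vehicle and 7.59, 7.96 and 7.75 FPKM with TGFB1, a smaller difference without overlap (log2 fold change -0.14, SE 0.052, adjusted p 0.0263). That call was lost without vehicle replicate 1, vehicle replicate 3 or TGFB1 replicate 1 (largest adjusted p 0.0794), and also under quantile normalization and median-ratio scaling. At day 11 it was 12.6, 10.7 and 10.2 FPKM with vehicle and 8.48, 8.44 and 8.71 FPKM after the pulse, lower again in every library (log2 fold change -0.35, SE 0.092, adjusted p 0.00827).

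Notch2, the second receptor, was lower than Notch1 in every vehicle library and rose with TGFB1 in all 3 tables. Without irradiation it was 3.88, 3.72 and 3.65 FPKM with vehicle and 4.51, 4.45 and 4.93 FPKM with TGFB1 (log2 fold change 0.24, SE 0.063, adjusted p 0.00516). After irradiation it was 3.36, 3.09 and 3.02 FPKM with vehicle and 5.45, 5.65 and 5.35 FPKM with TGFB1 (log2 fold change 0.64, SE 0.066, adjusted p 6.32e-06). In the day 11 table it was 4.89, 3.97 and 3.79 FPKM with vehicle and 7.65, 6.65 and 7.94 FPKM after the pulse (log2 fold change 0.69, SE 0.11, adjusted p 0.000403). No TGFB1 library overlapped a vehicle library in any table. As a share of the summed FPKM of both receptors, Notch2 made up 35.5 to 36.1% with vehicle and 47.8 to 50.7% with TGFB1 without irradiation. The shares were 25.8 to 27.5% and 40.8 to 41.8% at day 7 after irradiation, and 27.0 to 27.9% and 44.1 to 47.7% at day 11, so that the receptor pool moved towards Notch2 in each table.

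Among the ligands, Jag1 rose and Dll1 fell at day 7. Jag1, a Jagged-type ligand, was 3.83, 4.63 and 4.75 FPKM with vehicle and 7.41, 8.22 and 7.91 FPKM with TGFB1 without irradiation (log2 fold change 0.71, SE 0.075, adjusted p 8.43e-06). In irradiated organoids of day 7 it was 3.01, 3.19 and 3.50 FPKM with vehicle and 4.33, 4.55 and 5.21 FPKM with TGFB1 (log2 fold change 0.43, SE 0.081, adjusted p 0.000644). At day 11 it was 4.21, 3.37 and 3.38 FPKM with vehicle and 7.65, 6.03 and 7.63 FPKM after the pulse (log2 fold change 0.80, SE 0.12, adjusted p 0.000252). The groups were separate in all 3 tables, and the level after the pulse was 1.95 times that with vehicle.

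Dll1, the Delta-like ligand of secretory progenitors, was 6.96, 6.10 and 6.32 FPKM with vehicle and 3.96, 3.82 and 3.70 FPKM with TGFB1 without irradiation (log2 fold change -0.63, SE 0.063, adjusted p 6.09e-06). After irradiation it was 16.9, 16.7 and 17.2 FPKM with vehicle and 10.8, 12.0 and 12.8 FPKM with TGFB1 (log2 fold change -0.48, SE 0.061, adjusted p 3.29e-05). In the day 11 table it was 13.9, 11.4 and 11.2 FPKM with vehicle and 10.6, 10.0 and 9.98 FPKM after the pulse, again without overlap, but the difference missed the threshold (log2 fold change -0.23, SE 0.094, adjusted p 0.0548). It passed without vehicle replicate 3 (adjusted p 0.0376), under both scalings and in the fit over all 18 libraries. Of the summed FPKM of the 3 ligands, Dll1 held 46.1 to 50.0% with vehicle and 25.1 to 26.2% with TGFB1 without irradiation, while Jag1 held 27.5 to 35.1% and 48.9 to 54.2%. In irradiated organoids Dll1 remained the largest of the 3, with 57.4 to 61.5% in the TGFB1 libraries at day 7 and 45.7 to 49.9% at day 11.

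Dll4, the other Delta-like ligand, was low and showed no steady direction. Without irradiation it was 3.12, 2.51 and 2.47 FPKM with vehicle and 3.77, 3.13 and 3.06 FPKM with TGFB1, and the groups overlapped (log2 fold change 0.23, SE 0.092, adjusted p 0.0494). In irradiated organoids of day 7 it was 4.30, 3.72 and 4.13 FPKM with vehicle and 3.70, 3.00 and 3.00 FPKM with TGFB1 (log2 fold change -0.26, SE 0.086, adjusted p 0.0195). At day 11 it was 4.30, 4.07 and 3.12 FPKM with vehicle and 4.99, 4.01 and 2.63 FPKM after the pulse, with full overlap (log2 fold change -0.01, SE 0.18, adjusted p 0.973). The call without irradiation was lost without vehicle replicate 2, vehicle replicate 3, TGFB1 replicate 1 or TGFB1 replicate 2 (largest adjusted p 0.176), and the irradiated one without vehicle replicate 1, vehicle replicate 3, TGFB1 replicate 2 or TGFB1 replicate 3 (largest adjusted p 0.0737). The first was also lost under another pseudocount, filter, scaling or fit (adjusted p 0.0515 to 0.185), and the second in the fit over all 18 libraries (adjusted p 0.118). In the RefSeq annotation the noncoding gene Gm14207 overlaps Dll4, 0610009E02Rik and Mir6996 overlap Notch1, and Gm40103 overlaps Notch2. No source read here states whether reads were counted by strand, so reads of such pairs cannot be told apart.

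Lfng, the glycosyltransferase, rose at day 7, and without irradiation its log2 fold change was the highest of the 9 members. Without irradiation it was 5.31, 5.33 and 5.47 FPKM with vehicle and 13.5, 10.1 and 11.8 FPKM with TGFB1, 2.2 times as much (log2 fold change 1.00, SE 0.083, adjusted p 1.49e-06). After irradiation it was 10.2, 10.2 and 10.9 FPKM with vehicle and 15.3, 16.2 and 15.8 FPKM with TGFB1 (log2 fold change 0.55, SE 0.050, adjusted p 2.57e-06). In the day 11 table it was 12.3, 11.2 and 7.99 FPKM with vehicle and 12.2, 9.35 and 8.99 FPKM after the pulse, overlapping groups with no call (log2 fold change -0.03, SE 0.16, adjusted p 0.866). The vehicle libraries of day 11 were themselves spread over a wide range.

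Hes1, Hes6 and Nrarp did not move as a group. Hes1, the main repressor downstream of Notch in crypts, had the highest FPKM of the 9 members in each of the 18 libraries, at 105, 100 and 102 FPKM with vehicle and 110, 105 and 109 FPKM with TGFB1 without irradiation (log2 fold change 0.08, SE 0.033, adjusted p 0.0524). In irradiated organoids of day 7 it was 79.2, 83.7 and 84.6 FPKM with vehicle and 93.4, 93.3 and 93.0 FPKM with TGFB1, a small rise without overlap (log2 fold change 0.18, SE 0.037, adjusted p 0.0014). At day 11 it was 89.4, 108 and 107 FPKM with vehicle and 90.5, 86 and 80.6 FPKM after the pulse (log2 fold change -0.24, SE 0.095, adjusted p 0.0504), and the groups overlapped through vehicle replicate 1, without which the adjusted p was 0.00393. Under quantile normalization (0.0385), median-ratio scaling (0.0395) and the fit over all 18 libraries (0.00214), the adjusted p also passed. Without irradiation, leaving out vehicle replicate 1 or TGFB1 replicate 2 brought Hes1 past the threshold (lowest adjusted p 0.039), as did median-ratio scaling (adjusted p 0.0273).

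Hes6, which is known to oppose Hes1, was 66.9, 59.9 and 61.0 FPKM with vehicle and 72.7, 67.9 and 71.8 FPKM with TGFB1 without irradiation (log2 fold change 0.18, SE 0.047, adjusted p 0.0063), a call lost under quantile normalization (adjusted p 0.0717). After irradiation it was 77.9, 80.0 and 78.4 FPKM with vehicle and 76.6, 82.2 and 80.4 FPKM with TGFB1, overlapping groups with no call (log2 fold change 0.02, SE 0.038, adjusted p 0.692). In the day 11 table it was 74.5, 88.0 and 75.6 FPKM with vehicle and 55.9, 51.7 and 45.5 FPKM after the pulse, lower in every library (log2 fold change -0.63, SE 0.098, adjusted p 0.000349). The ratio of Hes1 to Hes6 was 1.57 to 1.68 with vehicle and 1.52 to 1.55 with TGFB1 without irradiation. It was 1.02 to 1.08 and 1.13 to 1.22 at day 7 after irradiation, and 1.2 to 1.41 and 1.62 to 1.77 at day 11.

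Nrarp, the feedback target, fell in all 3 tables. Without irradiation it was 22.3, 20.5 and 20.6 FPKM with vehicle and 13.2, 13.0 and 13.8 FPKM with TGFB1 (log2 fold change -0.63, SE 0.048, adjusted p 6.27e-07). In irradiated organoids of day 7 it was 28.2, 26.1 and 28.5 FPKM with vehicle and 18, 18 and 19.5 FPKM with TGFB1 (log2 fold change -0.55, SE 0.051, adjusted p 2.73e-06). At day 11 it was 20.4, 20.1 and 22.2 FPKM with vehicle and 18.4, 17.8 and 17 FPKM after the pulse (log2 fold change -0.23, SE 0.073, adjusted p 0.0211). The day 11 call was lost without vehicle replicate 3, TGFB1 replicate 2 or TGFB1 replicate 3 (largest adjusted p 0.0701). At day 7 Hes1 and Nrarp, both known as Notch targets, thus did not share a direction.

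**Figure D2:**
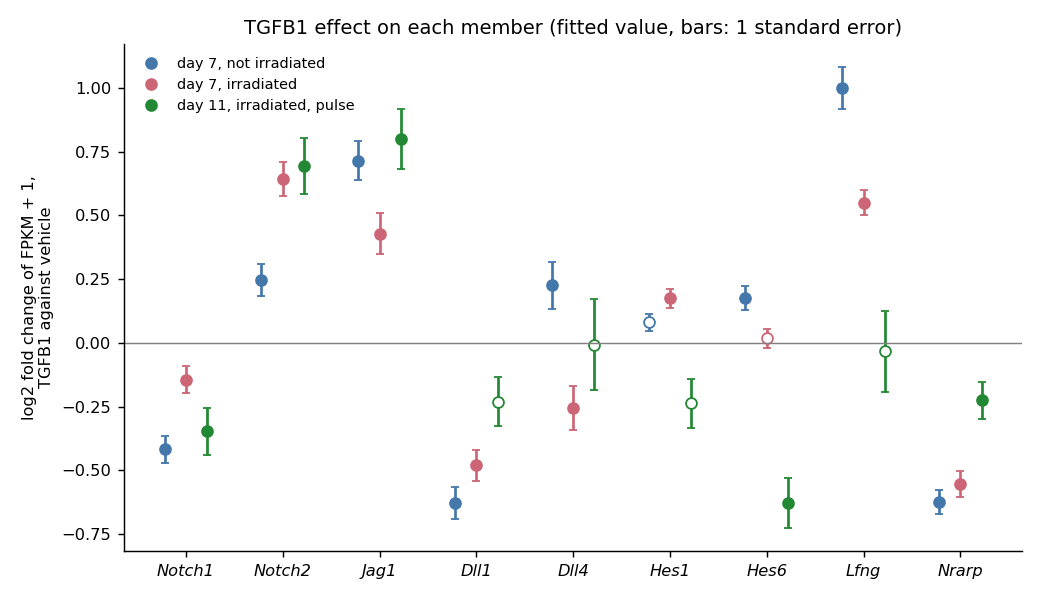
Log2 fold change of each member with TGFB1 against vehicle (y axis, log2 of FPKM + 1) in the 3 bulk tables; bars are 1 standard error, filled points passed the limma threshold and open points did not. Lfng ranges from 1.00 at day 7 without irradiation to -0.03 at day 11, and Hes6 from 0.18 to -0.63.

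Markers of cell types moved with TGFB1 in the same libraries, and their part in the members' changes was not tested. Sums over a list rest on its most abundant genes, so the genes called are counted as well. All 8 proliferation markers fell at day 7, from a summed 632 to 646 FPKM to 316 to 330 FPKM without irradiation and from 754 to 758 FPKM to 172 to 211 FPKM after it, and 2 rose and none fell at day 11. All 8 S-phase markers fell at day 7 after irradiation, where 1 rose and 5 fell without it, and 2 rose and 2 fell at day 11. The 8 regenerative markers all rose in each table (1047 to 1064 against 5819 to 6043, 753 to 794 against 6464 to 7056, and 494 to 653 against 5326 to 6145 FPKM). With vehicle, 1 of the 8 had a mean under 1 FPKM in every table, and with TGFB1 none had. Such a marker was tested only through its TGFB1 libraries, so that its place in these counts supports nothing. Of 8 stem markers, 3 rose and 3 fell without irradiation, 1 rose and 4 fell after it, and 4 rose and 2 fell at day 11. The summed stem level was nevertheless lower without irradiation (904 to 989 against 616 to 641 FPKM), where Olfm4 alone went from a mean of 373 to 77.2 FPKM.

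The lists of differentiated cells differed between tables. Of 8 goblet markers, all fell without irradiation, 7 fell and none rose after it, and 4 fell and 1 rose at day 11. Of 10 enterocyte markers, 9 fell and 1 rose without irradiation, 5 fell and 4 rose after it, and 6 fell and none rose at day 11. Of 8 Paneth markers, 1 rose and 5 fell without irradiation, 7 rose and none fell after it, and 6 rose and none fell at day 11. Of 8 enteroendocrine markers tested, 1 rose and 1 fell without irradiation, all 8 rose after it, and 6 fell and none rose at day 11. Of 6 tuft markers tested, 5 rose and none fell without irradiation, 5 rose and 1 fell after it, and 2 rose and 2 fell at day 11. At day 7 after irradiation, 2 of the 7 listed tuft markers had vehicle means under 1 FPKM, against 1 with TGFB1. A marker tested only through its TGFB1 libraries is thus in that count, and its place there supports nothing. Other tissues were scarce: all 7 endothelial markers were under 1 FPKM in every group, and Emcn was at 0 in all 18 libraries. Between 5 and 7 of 8 immune markers had group means under 1 FPKM. Their summed level was 5.12 to 10.2 FPKM with vehicle and 12.5 to 23.5 FPKM with TGFB1, mainly from Cd68 and Lyz2. The 8 mesenchymal markers summed to at most 0.921 FPKM except in the irradiated TGFB1 groups, with 3.17 to 4.86 FPKM at day 7 and 1.21 to 2.06 FPKM at day 11.

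Whether irradiation changed the TGFB1 effect was tested as an interaction over the 12 day 7 libraries, and 6 of the 9 members were called, against 53.1% of all genes tested (25.3% higher and 27.8% lower). The change with TGFB1 was higher after irradiation for both receptors, by 0.27 (SE 0.065, adjusted p 0.00268) for Notch1, whose fall was smaller, and by 0.40 (SE 0.083, adjusted p 0.00101) for Notch2, whose rise was larger. It was lower after irradiation for Lfng (log2 difference -0.45, SE 0.10, adjusted p 0.0021) and Dll4 (-0.48, SE 0.13, adjusted p 0.00659). Jag1 (-0.29, SE 0.11, adjusted p 0.0446) and Hes6 (-0.16, SE 0.062, adjusted p 0.0435) passed narrowly. Jag1 kept its call only without non-irradiated vehicle replicate 2 or 3, non-irradiated TGFB1 replicate 1, irradiated vehicle replicate 1 or irradiated TGFB1 replicate 3 (largest adjusted p over the 12 omissions 0.118). Hes6 kept it only without non-irradiated vehicle replicate 1, non-irradiated TGFB1 replicate 2 or irradiated TGFB1 replicate 2 (largest adjusted p 0.112). Dll1 (0.15, adjusted p 0.168), Hes1 (0.10, adjusted p 0.105) and Nrarp (0.07, adjusted p 0.398) did not pass, although Dll1 did without irradiated TGFB1 replicate 1 (adjusted p 0.0428). Hes1 passed under median-ratio scaling (0.14, adjusted p 0.0188). In 1 fit over all 18 libraries 3 members were called, and Dll4 (adjusted p 0.064), Jag1 (0.104) and Hes6 (0.218) were not. Jag1 was also lost under pseudocount 0.1, without the filter and under median-ratio scaling (adjusted p up to 0.0798), and Hes6 without the filter, without limma's trend and under both scalings (up to 0.156).

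The difference between the effect of the pulse at day 11 and that of TGFB1 at day 7 in irradiated organoids was tested in the same way, and 5 members were called, against 64.5% of all genes tested (31.5% higher and 33.0% lower). Hes6 (log2 difference -0.65, SE 0.11, adjusted p 0.000147), Lfng (-0.58, SE 0.18, adjusted p 0.0123) and Hes1 (-0.41, SE 0.10, adjusted p 0.00289) were lower relative to vehicle at day 11 than at day 7. Nrarp (0.33, SE 0.084, adjusted p 0.00385) was higher, since its fall was smaller at day 11, and so was Jag1 (0.37, SE 0.15, adjusted p 0.0386). The Jag1 call held only without day 7 vehicle replicate 1, day 7 TGFB1 replicate 3, day 11 vehicle replicate 1 or day 11 TGFB1 replicate 2 (largest adjusted p 0.0922). Notch1 (-0.20, adjusted p 0.0963), Notch2 (0.05, adjusted p 0.741), Dll1 (0.25, adjusted p 0.0668) and Dll4 (0.25, adjusted p 0.332) did not pass. Leaving out 1 library brought Dll1 (day 7 TGFB1 replicate 3 or day 11 vehicle replicate 1, lowest adjusted p 0.00509), Dll4 (day 11 TGFB1 replicate 3, adjusted p 0.0337) and Notch1 (day 11 vehicle replicate 3, adjusted p 0.0303) past the threshold. Notch1 also passed under quantile normalization (adjusted p 0.0278) and median-ratio scaling (0.0466), and Dll1 in the fit over all 18 libraries (0.0429) and with the replicate block (0.0448). Jag1 was also lost under pseudocount 0.1 (adjusted p 0.0522), without the filter (0.0579) and under median-ratio scaling (0.0652). The 2 irradiated tables differ in day and in time since TGFB1, which cannot be told apart. Both interactions share the irradiated day 7 libraries.

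Irradiation alone can be read only from vehicle levels in tables that were normalized separately, without a test. Between day 7 vehicle groups, 3 members were at least 1.5-fold apart without overlap, all higher after irradiation, where 45.0% of all genes were that far apart in either direction, 21.2% higher and 23.8% lower. Dll1 was 2.62 times as high (16.9 against 6.46 FPKM), Lfng 1.95 times (10.5 against 5.37 FPKM) and Dll4 1.5 times (4.05 against 2.7 FPKM). Jag1 (0.735 times), Hes1 (0.806 times) and Notch2 (0.842 times) were lower without reaching that size. Dll4 lay at the edge of the size required: leaving out 1 library left 2 or 3 members past it. From day 7 to day 11 in irradiated vehicle organoids no member passed, against 24.9% of all genes (14.2% higher and 10.7% lower), with Dll1 (0.72 times) and Hes1 (1.23 times) among those whose libraries did not overlap.

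Of the other genes of the pathway, 62 were listed by role, and 45, 40 and 42 of them were abundant enough to test in the 3 tables, in the order day 7 without irradiation, day 7 after irradiation and day 11. TGFB1 raised 15 and lowered 12 of them without irradiation, raised 16 and lowered 14 after irradiation, and raised 15 and lowered 11 at day 11. The median log2 fold changes of those tested were 0.00, -0.02 and 0.05, beside -0.02, -0.03 and 0.01 over all genes tested. Of 7 other ligands and receptors, 4 could be tested without irradiation and 3 rose, among them Jag2 (10.3, 9.56 and 10.8 FPKM with vehicle, 14.3, 15.2 and 16.1 FPKM with TGFB1; log2 fold change 0.53, adjusted p 1.07e-05). Another of the 3, Notch4, was 0.292, 0.305 and 0.271 FPKM with vehicle and 1.60, 1.90 and 1.75 FPKM with TGFB1. It reached the required mean of 1 FPKM only through the TGFB1 libraries, so that its call and its place in these counts support nothing. The same holds for Maml2 without irradiation and at day 11. Dlk1 at day 11 reached that mean only through its vehicle libraries, so that its call and its place in these counts support nothing either. At day 11 Jag2 was lower after the pulse (log2 fold change -0.31, adjusted p 0.0384).

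Among genes that cut or process the receptor, 10 were listed. Without irradiation 4 of 10 rose and 2 fell, after irradiation 5 of 8 rose and 2 fell, and at day 11 there were 4 of 8 that rose and 1 that fell, while 33.3%, 35.8% and 32.3% of all genes tested rose in the 3 tables. Furin, the protease that makes the first cut in Notch during its passage to the cell surface, went from 18.7, 18.1 and 18.4 FPKM to 41.0, 44.2 and 43.1 FPKM with TGFB1 without irradiation (log2 fold change 1.17, adjusted p 1.15e-09). After irradiation it went from 31.7, 33.4 and 32.8 FPKM to 74.9, 76.9 and 82.8 FPKM (log2 fold change 1.23, adjusted p 2.9e-09). Psen2, a subunit of the gamma-secretase that makes the last cut, fell in all 3 tables (log2 fold changes -0.25, -0.58 and -0.37). Adam17, a sheddase, was higher after the pulse at day 11 (log2 fold change 0.77, adjusted p 5.7e-05) and lower with TGFB1 at day 7 after irradiation (-0.22, adjusted p 0.00314).

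In the nuclear complex, 4 of 10 genes tested rose and 2 fell without irradiation, 3 of 9 rose and 3 fell after irradiation, and 4 of 10 rose and 1 fell at day 11. The coactivator Maml2 was 0.482, 0.548 and 0.349 FPKM with vehicle and 2.15, 1.89 and 1.93 FPKM with TGFB1 without irradiation, tested only through its TGFB1 libraries. The acetyltransferase Kat2a fell from 37.8, 35.8 and 36.8 FPKM to 20.7, 20.2 and 18.5 FPKM after irradiation (adjusted p 7.11e-08). Rbpj itself was 7.60, 7.28 and 7.50 FPKM with vehicle and 8.09, 8.81 and 8.94 FPKM with TGFB1 without irradiation (adjusted p 0.0109), with no call in the irradiated tables. Of 3 glycosylation genes tested besides Lfng, none rose, and Rfng, another Fringe, fell at day 7 where Lfng rose (log2 fold change -0.30, adjusted p 0.000397 without irradiation, and -0.50, adjusted p 1.03e-05 after it). Among endocytosis and turnover genes, 3 of 11 rose and 3 fell without irradiation, 6 rose and 2 fell after irradiation, and 5 rose and 3 fell at day 11. Neurl1b, a ligase that acts on ligand uptake, fell from 8.47, 8.23 and 8.22 FPKM to 2.49, 2.28 and 2.28 FPKM without irradiation (adjusted p 3.52e-09).

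The other Hes and Hey genes gave almost no reading: none of the 7 reached a mean of 1 FPKM without irradiation or at day 11, 1 did after irradiation without being called, and their summed level stayed between 0.716 and 2.85 FPKM. Among the factors of secretory cells that Notch holds down, 1 of 7 tested rose and 3 fell without irradiation, 2 rose and 5 fell after irradiation, and 2 of 8 rose and 4 fell at day 11. At day 11, 2 of the 9 factors listed had vehicle means under 1 FPKM, against 1 after the pulse. A factor tested only through its TGFB1 libraries is thus among the 8, and its place in these counts supports nothing. Atoh1 fell from 8.53, 8.79 and 8.91 FPKM to 5.6, 6.71 and 6.30 FPKM without irradiation (adjusted p 0.000107) and from 10.8, 11.1 and 11.2 FPKM to 6.57, 5.72 and 4.59 FPKM after it (adjusted p 1.55e-05). Neurog3, the starter of enteroendocrine cells, fell in all 3 tables (log2 fold changes -0.73, -1.03 and -0.52). Sox4, listed with them, went the other way, from 39.7, 38.0 and 39.2 FPKM to 115, 125 and 123 FPKM without irradiation (log2 fold change 1.61, adjusted p 9.93e-11) and from 47.5, 46.1 and 48.1 FPKM to 193, 195 and 209 FPKM after it (log2 fold change 2.05, adjusted p 5.34e-11). Spdef, a goblet and Paneth cell factor, was 8.63, 7.71 and 6.57 FPKM with vehicle and 26.2, 23.0 and 18.5 FPKM after the pulse at day 11 (log2 fold change 1.44, adjusted p 1e-05).

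Further genes were among the 4 largest called rises or falls of a table within these lists. After irradiation Dtx3 (log2 fold change 0.89) and Dtx3l (0.77), of the Deltex family of ubiquitin ligases, rose with TGFB1. Insm1, a factor of enteroendocrine cells, fell without irradiation (-0.36). At day 11 Dtx2 (0.88) was higher after the pulse, and Mib2, a ligase that acts on ligands (-1.07), Neurod1 (-0.91) and the coactivator Maml3 (-0.79) were lower. Dlk1 had means of 1.75 FPKM with vehicle and 0.343 FPKM after the pulse, and was tested only through its vehicle libraries.

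Patterns over the 18 bulk libraries, each centred on the mean of its table, were compared between each member and about 9040 other genes by Pearson's r, given as a description. The points share tables and treatments, so that any 2 genes that respond to TGFB1 resemble each other. Dll1 and Nrarp had an r of 0.947, which made Nrarp the third closest of all genes to Dll1, and Sec13 was the closest to Nrarp (0.981). Notch2 was closest to Rc3h1 (0.986), Jag1 to Synj2 (0.977), Notch1 to Zfp871 (0.977), Hes6 to Npc2 (0.95), Lfng to Gm5424 (0.947), Hes1 to Ptov1 (0.940) and Dll4 to Tubgcp2 (0.765). Notch2 and Jag1 had an r of 0.857, and Hes1 and Hes6 of 0.781. The r of Dll4 with the other members lay between -0.15 and 0.33.

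In single cells the question was how the members behaved over hours of TGFB1 in irradiated day 8 organoids. Each time point is 1 library, so there is no test: levels are CPM, summed unique molecular identifiers (UMIs, which tag single RNA molecules) scaled to one library total, with exact Poisson 95% intervals that cover counting error only. The libraries held 2932, 4283, 2890 and 2218 cells at 0, 6, 15 and 24 h, with median depths of 8201.5, 6709, 7805 and 10441 UMIs a cell. Barcodes were hardly shared: of 21 pairs among the 7 libraries, 2 pairs had 1 barcode in common. A fold of at least 1.5 was passed by 1 member at 6 h, 1 at 15 h and 1 at 24 h, all of them upwards. Of all genes with enough UMIs, 10.4% passed at 6 h (6.99% higher and 3.44% lower), 18% at 15 h (12% higher and 5.94% lower) and 26.4% at 24 h (17.4% higher and 9.03% lower).

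Notch2 was 5.56 CPM at 0 h, 7.69 at 6 h, 8.74 at 15 h and 10.7 at 24 h, the member with the largest fold at 24 h (1.93, interval 1.59 to 2.36). Lfng was highest at 6 h, with 10.2, 17.8, 12.1 and 13.6 CPM in order of time, a fold of 1.75 (1.51 to 2.02) at 6 h. Hes1 was 189, 217, 264 and 263 CPM, and Hes6 was 62.5, 92.7, 71.4 and 77.6 CPM, so that the Hes6 library values peaked at 6 h (fold 1.48, 1.4 to 1.57) and those of Hes1 at 15 and 24 h (fold 1.4, 1.35 to 1.45 at 15 h). Nrarp was 26.6, 33.7, 23.8 and 24.6 CPM, and Notch1 31.7, 41.6, 39.3 and 40.9 CPM. Dll1 was 30.9, 24.9, 27.5 and 25.5 CPM, Jag1 22.3, 16.4, 17 and 18.4 CPM, and Dll4 2.34, 2.90, 1.75 and 1.89 CPM with wide intervals (2.34 to 3.55 CPM at 6 h and 1.28 to 2.33 CPM at 15 h for Dll4).

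**Figure D3:**
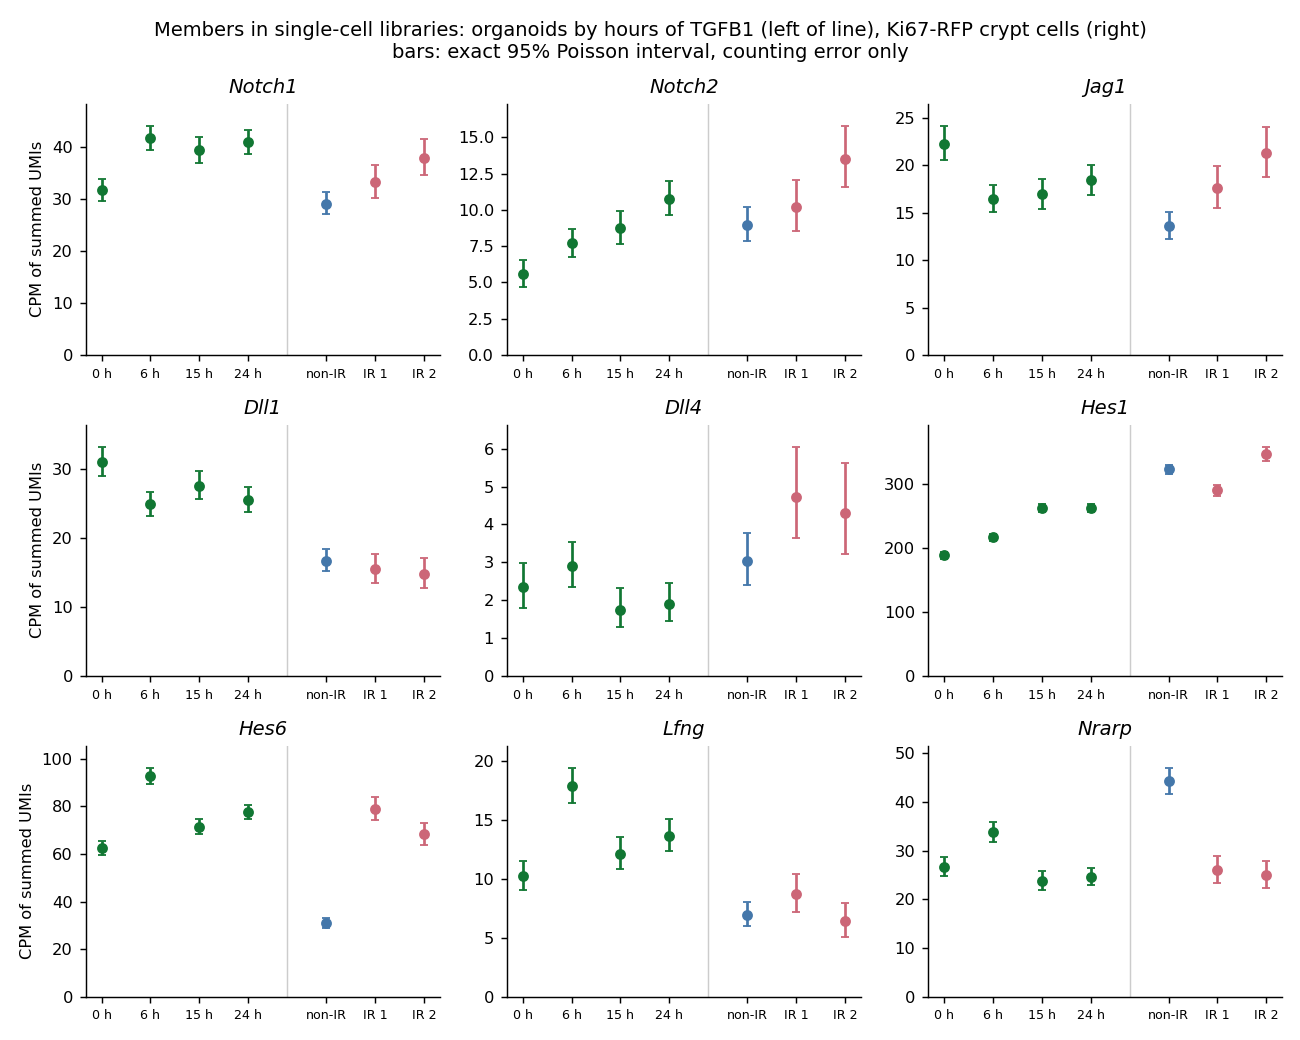
Level of each member (CPM of summed UMIs, linear axis from 0) in the 7 single-cell libraries; points are libraries and bars exact Poisson 95% intervals for counting error only. Notch2 runs from 5.56 CPM at 0 h to 10.7 CPM at 24 h, and Hes6 and Nrarp separate both irradiated crypt libraries from the non-irradiated one.

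Set beside the bulk day 7 irradiated table, which differs in day and in TGFB1 dose (2 against 1 ng/mL), the 24 h library was above 0 h for Notch2, Hes1 (fold 1.39) and Lfng (1.34, 1.15 to 1.56) and below it for Dll1 (0.825, 0.748 to 0.911), as the bulk fold changes were. The intervals of Dll4 (0.809, 0.557 to 1.17) and Nrarp (0.925, 0.834 to 1.03) included 1. Notch1 (1.29, 1.18 to 1.41) and Jag1 (0.827, 0.736 to 0.929) lay on the side of 1 opposite to the bulk values. Hes6 was 1.24-fold (1.17 to 1.32) higher at 24 h, where the bulk difference was not called (log2 fold change 0.02, adjusted p 0.692). Among the other pathway genes, 1 was past 1.5-fold upwards and 3 downwards at 6 h, 3 and 1 at 15 h, and 9 and 0 at 24 h, of 42 with enough UMIs. Sox4 went from 163 CPM at 0 h to 267, 446 and 569 CPM, and Furin was 2.02-fold higher at 24 h. Proliferation markers were 663, 781, 468 and 360 CPM in sum over the 4 times and regenerative markers 389, 587, 1160 and 1964 CPM, and their part in the members' values was not tested.

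In Ki67-RFP crypt cells, irradiation was compared in 1 non-irradiated library (1846 cells) and 2 libraries taken 56 h after 12 Gy (719 and 699 cells), again with no test. Hes6 was 30.9 CPM (28.7 to 33.1) without irradiation and 79.0 (74.4 to 83.8) and 68.4 (63.8 to 73.1) after it, 2.56-fold and 2.22-fold higher. Nrarp was 44.2 CPM (41.7 to 46.9) without irradiation and 26.0 (23.4 to 28.8) and 24.9 (22.2 to 27.9) after it, 0.59 and 0.56 times as high. These 2 of 9 members were at least 1.5-fold apart in both irradiated libraries, against 31.3% of all genes (20.2% higher and 11.1% lower). With only the second irradiated library 4 members passed (Notch2 and Jag1 in addition), against 37.6% of all genes (24.5% higher and 13.1% lower). With only the first 3 did (Dll4 in addition), against 38.9% (23.8% higher and 15.1% lower). Hes1, at 324, 291 and 347 CPM, had irradiated libraries on both sides of the non-irradiated one. Under median-ratio scaling both irradiated libraries lay below the non-irradiated one, at 0.822 and 0.968 times its level.

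The receptors and ligands moved less. Notch1 was 29.0, 33.2 and 37.9 CPM in the non-irradiated, first and second irradiated library, Notch2 8.96, 10.2 and 13.5 CPM, and Jag1 13.6, 17.6 and 21.3 CPM. Dll1 was 16.6, 15.4 and 14.7 CPM with overlapping intervals, in contrast to its higher vehicle level in irradiated organoids at day 7, a different system and dose. Dll4 was 3.03, 4.73 and 4.29 CPM and Lfng 6.95, 8.66 and 6.40 CPM. Endothelial markers summed to 6.55, 11.7 and 12.7 CPM in the same order, nearly all from Pecam1, while Cdh5 had 0 UMIs in all 3 libraries and Kdr 2, 0 and 0 UMIs. Immune markers summed to 8.41, 13.1 and 9.0 CPM. A larger difference lay outside the 9 members: Jag2 was 1.13 CPM (29 UMIs) without irradiation and 9.98 and 13.3 CPM after it, 8.86-fold (5.90 to 13.7) and 11.8-fold (7.92 to 18.2) higher, and Notch3 was 0.0388 CPM (1 UMI) and 2.99 and 4.54 CPM. Of 37 other pathway genes with enough UMIs, 13 were past 1.5-fold upwards in each irradiated library and 3 and 2 downwards, and Furin was 3.79-fold and 3.60-fold higher.

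Cells were then grouped into clusters without using the members or the other pathway genes, and clusters were named from marker lists. The clusters are a description and give no test. The organoids gave 6 named classes among 12323 cells, and the crypt cells 5 among 3264, while cells in clusters with no clear markers (3756 and 1764) stayed unnamed. The 4 members Dll1, Dll4, Hes6 and Lfng were highest in the goblet-like class in both experiments. In organoids (303 goblet-like cells, whose leading genes also included the enteroendocrine genes Chga, Chgb and Cck), Dll1 was 107 CPM (93.6 to 121), against 10.4 to 30.0 CPM in the other named classes. Dll4 was 32.0 CPM (25.0 to 40.3) against 0.454 to 3.37 CPM, Lfng 73.9 CPM (63.0 to 86.1) against 1.55 to 27.2 CPM, and Hes6 220 CPM (201 to 240) against 56.3 to 98.1 CPM. In crypt cells (126 goblet-like cells) the values were 152 CPM (135 to 172) for Dll1, 46.8 (37.3 to 58.1) for Dll4, 48.0 (38.3 to 59.3) for Lfng and 159 (141 to 179) for Hes6. Atoh1, a marker used to name the class, was 51.4 CPM in the organoid and 96.5 CPM in the crypt class. At 2000 UMIs a cell, Dll1 was found in 18.5% of goblet-like organoid cells (14.3 to 23.4, exact binomial interval) and in 5.90% of enterocyte-like cells (40.3% and 20.2% at full depth, with medians of 5638 and 6904 UMIs). Free RNA can give UMIs in cells that do not make a gene, so the lower share may hold such background.

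Hes1 was highest in stem-like organoid cells, with 446 CPM (435 to 456), against 120 CPM in enterocyte-like cells. Notch1 was 66.5 CPM (62.5 to 70.7) in stem-like and 62.4 CPM in proliferating organoid cells, against 20.7 CPM in enterocyte-like cells. In goblet-like crypt cells Hes1 was 153 CPM (136 to 173), the lowest of the 5 crypt classes, where the others lay between 269 and 347 CPM. In organoids goblet-like cells had 231 CPM and were not the lowest class, enterocyte-like cells being lower. Nrarp was 49.2 CPM (46.6 to 51.9) in proliferating and 37.7 CPM in S-phase organoid cells, an order that finer clustering did not keep (47.9 and 48.2 CPM). Jag1 was highest in the regenerative-like class, with 32.1 CPM (27.7 to 36.9), although finer clustering left 23.5 CPM there and 21.1 CPM in enterocyte-like cells. Notch2 was 21.9 CPM (18.3 to 26.0) there, pooled over times, but at 24 h it was 20.9 CPM (16.8 to 25.6) in regenerative-like and 21.5 CPM (17.5 to 26.2) in stem-like cells. With finer clustering, pooled over times, Notch2 was 22.3 CPM (19.7 to 25.3) in regenerative-like and 12.6 CPM (10.3 to 15.2) in stem-like cells. The comparison of these 2 classes thus depends on the clustering. In crypt cells Jag1 was again highest in the regenerative-like class, at 28.4 CPM (25.3 to 31.8). Notch2 was nearly absent from enterocyte-like organoid cells, at 1.06 CPM (0.704 to 1.53), whereas Jag1 was present there at 22.6 CPM (20.8 to 24.4). Regenerative-like crypt cells came only from the irradiated libraries and stem-like crypt cells only from the non-irradiated one, so class and irradiation cannot be told apart there. In organoids, 292 of the 323 regenerative-like cells came from the 15 and 24 h libraries.

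**Figure D4:**
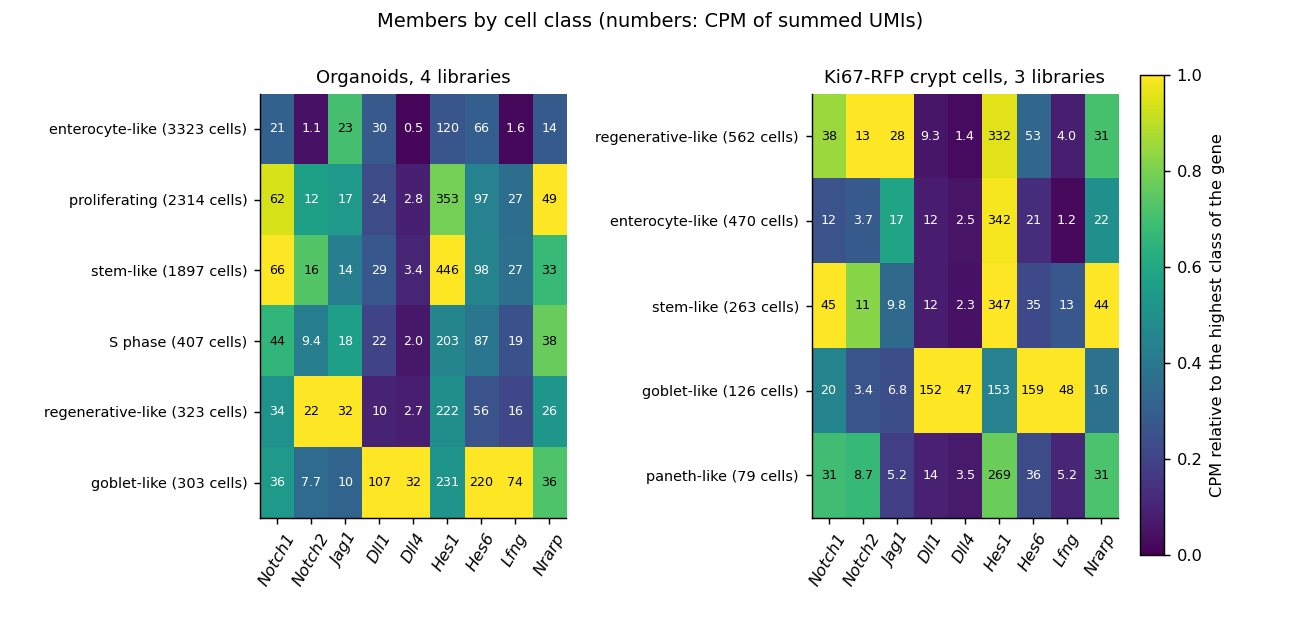
Level of each member (numbers, CPM of summed UMIs over all libraries of the experiment) in each named cell class, with colour relative to the highest class of that gene. Dll1, Dll4, Hes6 and Lfng peak in goblet-like cells in both experiments, and Jag1 in regenerative-like cells.

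Within classes as named, the time course kept some of its shape, but the cells that made up a class changed over time. In stem-like organoid cells Notch2 was 9.39 CPM at 0 h, 12.7 at 6 h, 18 at 15 h and 21.5 at 24 h, with intervals of 6.38 to 13.3 and 17.5 to 26.2 at the ends. Hes1 in proliferating cells was 270, 295, 468 and 521 CPM in the same order, and Hes6 there was 59.2, 114, 108 and 114 CPM. Finer clustering split these cells by time. A proliferating cluster led by Rgcc held 314, 22, 0 and 2 cells, and one led by Cenpf held 36, 494, 274 and 165. The 0 h values of this class thus come largely from different cells than the later ones. Lfng in stem-like cells was 19.1, 36.8, 22.9 and 29.5 CPM, highest at 6 h as in the whole libraries. Finer clustering left 295, 325, 289 and 72 cells of the 4 times in the larger stem-like cluster. A regenerative-like cluster led by Cym, Thbs1 and Clu then held 12, 33, 203 and 418 cells. Values within the stem-like class thus may not compare the same cells over time. Dll1 in goblet-like cells was 153 CPM (124 to 186) at 0 h and 95.2, 71.5 and 94.0 CPM afterwards, over 66 to 90 cells a library. Goblet-like crypt cells had 212 CPM (181 to 247) of Dll1 without irradiation and 94.8 (72.3 to 122) and 124 (90.7 to 166) after it, and 104 CPM (82.8 to 130) of Hes6 without irradiation and 207 (173 to 246) and 193 (151 to 244) after it. These were largely different cells: finer clustering split the class into a group led by Fcgbp, with Insm1 and Neurog3 among its leading genes (67 non-irradiated cells and 8 and 4 irradiated ones), and a group led by Reg4 (0, 30 and 16 cells). Stem-like cells of cluster 11 and enterocyte-like cells of clusters 12 and 13 were led by pseudogenes, and at 0 h most enterocyte-like cells fell into a different cluster from those of later times (896 cells in cluster 5, against 160, 22 and 1 later), so that values within the enterocyte-like class do not compare the same cells over time. A cluster of 478 unnamed organoid cells led by small noncoding RNAs held 380 cells of the 24 h library.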

How the data were processed

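Per the submitters' processing notes, TopHat2 2.1.0, Cuffnorm 2.2.1 and STARsolo (STAR 2.7.10a) were among the tools used, with builds mm9, GRCm39 and mm39 but no roles. The authors deposited bulk RNA as 3 FPKM tables, each normalized on its own, and single cells as matrices of expected counts, UMIs partly split between genes (8.67 to 22.0% of UMIs in entries that were not whole). The members and lists were chosen with earlier results of these data known.

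Genes whose mean reached 1 FPKM were tested on log2(FPKM + 1) with limma 3.58.1 (R 4.3.3, trend and robust settings) within each table, with Benjamini-Hochberg adjustment over all genes tested, and as interactions over 12 libraries. Vehicle levels between tables were not tested. The cell filter required 500 UMIs, 250 genes and no more than 20% mitochondrial UMIs. No doublet caller was run and no doublets were removed. UMIs were summed per library, and folds used genes with at least 100 summed UMIs. Cells were clustered with scanpy 1.11.5 and leidenalg 0.10.2 at resolution 0.6. Intervals and shares cover counting error only. The scripts were tested on simulated data.

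All 9 members are named, with the 4 called genes of the other pathway lists that rose most and the 4 that fell most in each table. Jag2, Notch3, Rbpj and Rfng, and other pathway genes outside that rule for a table, were named after their values were seen. Chromatin accessibility peaks were not analysed here. Libraries were not paired by replicate number in the main fits, since no label says that a number marks a shared culture. Alternatives were other pseudocounts, filters, scalings, fits, cell filters and clusterings, and leaving out each library.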

Additional observations from a re-analysis of the deposited data

Results flagged for a closer look

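For the 11 effects below, limma found that the log2 change with TGFB1 differed between 2 kinds of organoid, at an adjusted p under 0.05. With irradiation at day 7, the change was more positive for Notch1 (0.27) and Notch2 (0.40) and more negative for Jag1 (-0.29), Dll4 (-0.48), Hes6 (-0.16) and Lfng (-0.45). At day 11 compared with day 7 in irradiated organoids, it was more positive for Jag1 (0.37) and Nrarp (0.33) and more negative for Hes1 (-0.41), Hes6 (-0.65) and Lfng (-0.58). Among all genes tested, 53.1% and 64.5% differed in these ways. The Jag1 differences and that of Hes6 with irradiation lost their calls without single libraries, and those of Jag1, Hes6 and Dll4 with irradiation in the fit over all 18 libraries, as given above.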

How the results depend on the processing

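Of 98 member or gene counts with 1 library left out, 97 stayed within 1.5 times the main count, as did 108 of 126 under other settings. Requiring at least 1.5-fold left 4, 1 and 3 members and 2223, 3316 and 3554 of all genes for TGFB1 without irradiation, with irradiation and at day 11 (from 7732, 8495 and 7335), and 0 and 1 members and 1736 and 4220 genes for the irradiation and day interactions (from 6061 and 7387). A filter at 5 FPKM left 5 members at day 7 after irradiation, and 1 fit over 18 libraries left 3 for the irradiation interaction. At 2-fold, 1 member remained for irradiation alone, 0 at 6 h, 0 at 15 h, 0 at 24 h and 1 in crypt cells. With at most 10% mitochondrial UMIs, 2 members passed at 6 h. Crypt counts ran from 3 to 4 with 1 irradiated library left out. In crypt cells, Hes1 in the second irradiated library went from above to below the non-irradiated level under median-ratio scaling (0.968 times). In bulk RNA, directions reversed only for effects without a call: Hes6 at day 7 after irradiation (-0.0504 under quantile normalization, -0.0049 to 0.0454 with 1 library left out, negative without TGFB1 replicate 2), Dll4 at day 11 (0.0315 under quantile normalization, -0.17 to 0.19 with 1 library left out), Lfng at day 11 (-0.20 to 0.0802) and Notch2 in the day interaction (-0.0080 without day 11 vehicle replicate 3, up to 0.14). The cause was not tested.

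Correlations of same-numbered libraries ran from -0.09 to 0.21, which shows no clear pairing but cannot exclude a shared origin with 3 libraries a group. The replicate block gave 9, 8 and 6 members for TGFB1 in the 3 tables and 6 and 6 for the interactions, with 7701, 8417, 7351, 5964 and 7396 of all genes. Depth limits the low single-cell members, above all Dll4, and is unknown for FPKM.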
